A study of Mus musculus with 8 samples.

Results

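The 10 genes described here are markers of pluripotent stem cells, Pou5f1, Nanog, Zfp42, Esrrb, Tdgf1, Dppa5a, Zscan10, Utf1, Fgf4 and Sall4, measured in neural cells sorted from neurospheres. They were chosen by name with earlier results of these data known, so counts set beside shares of all genes only describe them. They were found on the array through the transcript accession of each probe, which gave 15 probes. All 10 had a probe that passed the filter on dim signal, and they are 10 of the 13790 genes tested. In 7 of the 10, both arrays of NFIA cells from secondary neurospheres lay below every other array, an arrangement that 13.4% of all tested genes had. From primary to secondary neurospheres, 6 of the 10 fell in NFIA cells, where 1.34% of all genes did, and 0 passed the test in control cells, where 0.863% did. These results rest on how arrays are assigned to samples: none of the 6 passed with the scanner files as attached, with groups by source name or without the array PN_NFIA 1.

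Pluripotency is the state in which a cell can still form every tissue of the embryo. It is held by a circuit of transcription factors that switch on each other and themselves, with the POU factor OCT4 (Pou5f1), its HMG-box partner SOX2 and the homeodomain factor NANOG at the core. When embryonic stem cells turn into neural progenitors, the circuit is shut down while Sox2 stays on, because neural progenitors use it too.

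Mouse embryonic stem cells had been grown into neural stem and progenitor cells as floating neurospheres, in cultures that mixed control cells with cells overexpressing NFIA, a transcription factor of early gliogenesis. The cells were then parted by fluorescence-activated sorting, and RNA of each fraction was hybridised to a 1-colour array. The 4 groups of 2 arrays were control and NFIA-overexpressing cells of primary neurospheres (PN_control and PN_NFIA, passage 0, day 6) and the same cell types of secondary neurospheres (SN_control and SN_NFIA, passage 1, day 12), with all times counted from embryoid bodies. The promoter that drives NFIA, the number of clones and whether the arrays come from separate cultures are not given in the sources used here, so p-values measure only the spread between these arrays, which may be technical.

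The labels conflict in 2 ways that touch every value. Only 1 column of the authors' value table matched the scanner file attached to its own sample, and 7 matched the file of another sample (correlation with the matched file at least 0.9999, with any other at most 0.339). Values follow the value table. By that order the arrays run along the slide, so passage coincides with the slide's row and NFIA with its columns, and neither can be told apart from position. In addition, the source names give the line as NFIA for all 4 arrays titled control and as WT for PN_NFIA 1 and SN_NFIA 2, while the groups here follow the titles. With the files as attached, the median difference of the 10 genes between SN_NFIA and SN_control turned from -1.78 to 1.06, and with groups from the source names to 0.77. From PN_NFIA to SN_NFIA it went from -2.52 to 0.11 with the files as attached and to -0.33 by the source names, and no member passed the test under either. By the source names the median of primary neurospheres turned from 0.83 to -0.94, with the array titled PN_NFIA 1 as the only control. That of the passage of control cells turned from 0.51 to -2.64 (1 array a side). By source name this sets the array titled SN_NFIA 2 against the one titled PN_NFIA 1, so it holds no array titled control. The overexpressed gene, Nfia, was higher in the NFIA arrays of each passage without passing the test. Its brighter probe stood at -1.30 and -0.30 in PN_control, -0.24 and 0.93 in PN_NFIA, 1.00 and 0.61 in SN_control, and 1.70 and 1.62 in SN_NFIA, with differences of 1.15 ± 0.48 (adjusted p = 0.513) and 0.85 ± 0.48 (adjusted p = 0.464) in limma. By this probe both SN_control arrays were also higher than either PN_control array. A dimmer Nfia probe, well above background on all 8 arrays, stood at -3.88 and -2.99 in PN_control and -1.88 and -0.88 in PN_NFIA. It was at -1.68 and -3.19 in SN_control and -0.08 and -1.11 in SN_NFIA. On it the NFIA arrays were again the higher ones in each passage, the control groups overlapped, and the differences were not tested.

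Levels are log2 signals relative to the 75th percentile of their array, from the brightest probe of a gene, and differences are in log2 units ± SE from limma with 2 arrays a side. A gene was called at an adjusted p (Benjamini-Hochberg over all 13790 genes) under 0.05. The signal of a probe depends on its sequence, so levels are compared between arrays and not between genes. In a bulk RNA sample, fewer cells of a type and less RNA per cell cannot be told apart. Between 44.4% and 55.5% of probes were well above background on an array, no spot was saturated, and 2 arrays of a group correlated at 0.944 to 0.983 over all genes. All 12 neural stem cell markers listed, among them Nes, Sox1, Pax6 and Sox9, had a probe well above background on all 8 arrays.

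Of the core factors, Pou5f1 was lowest in SN_NFIA cells. Its 2 levels were -1.23 and -1.81 in PN_control, -0.23 and -1.15 in PN_NFIA, -1.28 and -0.24 in SN_control, and -3.72 and -2.68 in SN_NFIA. Both SN_NFIA arrays lay below the other 6, and the other 3 groups were not clear of their neighbours in the order of means. The probe was well above background on all 8 arrays. RefSeq lists 5 genes named as copies of Pou5f1, and whether the probe also binds their transcripts was not tested.

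Nanog, which locks cells into the ground state of pluripotency, did not share that pattern. Its level was -0.80 and -0.33 in PN_control, -0.27 and 0.12 in PN_NFIA, 0.53 and -0.29 in SN_control, and 0.03 and 0.28 in SN_NFIA. The PN_control arrays were the lowest 2, and the other 3 groups overlapped. Nanog is covered by 1 probe, which was well above background on all arrays, and RefSeq lists 2 pseudogenes of it, whose part in the signal was not tested.

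The promoters of Nanog and of Zfp42, a zinc finger gene known as Rex1 that marks undifferentiated stem cells, are shown because the members were searched for the DNA words read by OCT4 and SOX2 and these 2 hold an OCT4 word. Both are the 250 bases before the RefSeq start, on build GRCm38.p6: Nanog at chr6:122707239-122707488 on the plus strand and Zfp42 at chr8:43307010-43307259 on the minus strand. Capitals mark every match, on either strand, to the OCT and SOX words spelled out after the sequences or to their composite.
Nanog: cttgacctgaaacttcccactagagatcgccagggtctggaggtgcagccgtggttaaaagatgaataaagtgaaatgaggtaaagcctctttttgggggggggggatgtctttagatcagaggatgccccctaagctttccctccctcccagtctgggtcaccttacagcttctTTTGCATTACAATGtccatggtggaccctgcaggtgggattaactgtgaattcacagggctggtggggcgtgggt
Zfp42: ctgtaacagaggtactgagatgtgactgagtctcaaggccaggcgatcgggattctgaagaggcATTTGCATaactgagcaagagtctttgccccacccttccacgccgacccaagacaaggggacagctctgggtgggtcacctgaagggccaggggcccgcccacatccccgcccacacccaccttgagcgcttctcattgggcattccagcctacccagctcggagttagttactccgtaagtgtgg
The capitals in the Nanog promoter, from -75 to -62 relative to the start, are the composite of a SOX and an OCT word side by side, read on the other strand, which overlaps its single words. Of 32851 RefSeq promoters of this length 2 held it, and both are alternative starts of Nanog. The table held 11 promoters of 8 members. The full octamer ATGCAAAT stood in 1 of the 11, that of Zfp42, against 1.6% of all promoters. Its shorter form ATGCAAA stood in 3 of 11, or 2 of 8 genes (Nanog and Zfp42, 4.12% of all promoters). The 2 Nanog promoters overlap and share 1 site, which is counted in both, also for the SOX word. The SOX word ACAATG stood in 3 of 11, or 2 of 8 genes (Nanog and Pou5f1, 10.7%), the ESRRB word AAGGTCA in 0 of 11 (4.08%) and the GC box GGGCGG in 5 of 11 (32.7%). A match describes the letters only.

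Zfp42 was at -0.04 and -0.21 in PN_control, 1.15 and 0.27 in PN_NFIA, -0.71 and 0.10 in SN_control, and -3.18 and -1.67 in SN_NFIA. Both SN_NFIA arrays lay below all others, and both PN_NFIA arrays lay above all others. RefSeq lists 1 pseudogene of it.

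Esrrb, an orphan nuclear receptor gene of the naive state, stood at 1.06 and 1.11 in PN_control and 1.77 and 1.09 in PN_NFIA. It was at -0.09 and 0.41 in SN_control and -1.02 and -1.17 in SN_NFIA. In both cell types the secondary arrays lay below the primary ones, which of the 10 genes held only for Esrrb and Dppa5a. Over all genes 26.9% lay so in control cells and 31.3% in NFIA cells, and the share with both was not counted. Dppa5a, which encodes a KH-domain RNA-binding protein of stem cells and early embryos, was at 5.07 and 4.97 in PN_control and 5.98 and 5.17 in PN_NFIA. It was at 3.92 and 4.86 in SN_control and 1.30 and 2.75 in SN_NFIA. No 2 groups overlapped for Dppa5a, although the gaps between the upper 3 groups were small beside that to SN_NFIA (0.55, 0.63 and 2.37). RefSeq lists 2 pseudogenes next to it in name, Dppa5b and Dppa5c.

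Zscan10, a SCAN-domain zinc finger gene also called Zfp206, had levels of -1.58 and -1.93 in PN_control, -0.05 and -1.08 in PN_NFIA, -1.0 and -1.02 in SN_control, and -4.06 and -3.50 in SN_NFIA. The probe was not well above background on 1 of the 2 SN_NFIA arrays. A second Zscan10 probe was not well above background on any array and was not used. Utf1, a gene for a chromatin-bound protein of stem cells, stood at 0.01 and 0.29 in PN_control, 1.32 and 0.75 in PN_NFIA, 0.46 and 0.52 in SN_control, and -0.87 and -1.03 in SN_NFIA. Its 4 groups did not overlap, in the order PN_NFIA, SN_control, PN_control and SN_NFIA.

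Fgf4, the gene of a growth factor that stem cells secrete and that pushes them towards differentiation, showed the same order with no overlap. Its levels were -1.16 and -0.92 in PN_control, 0.75 and 0.10 in PN_NFIA, -0.31 and 0.08 in SN_control, and -2.55 and -2.28 in SN_NFIA. It was well above background on every array.

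**Figure D1:**
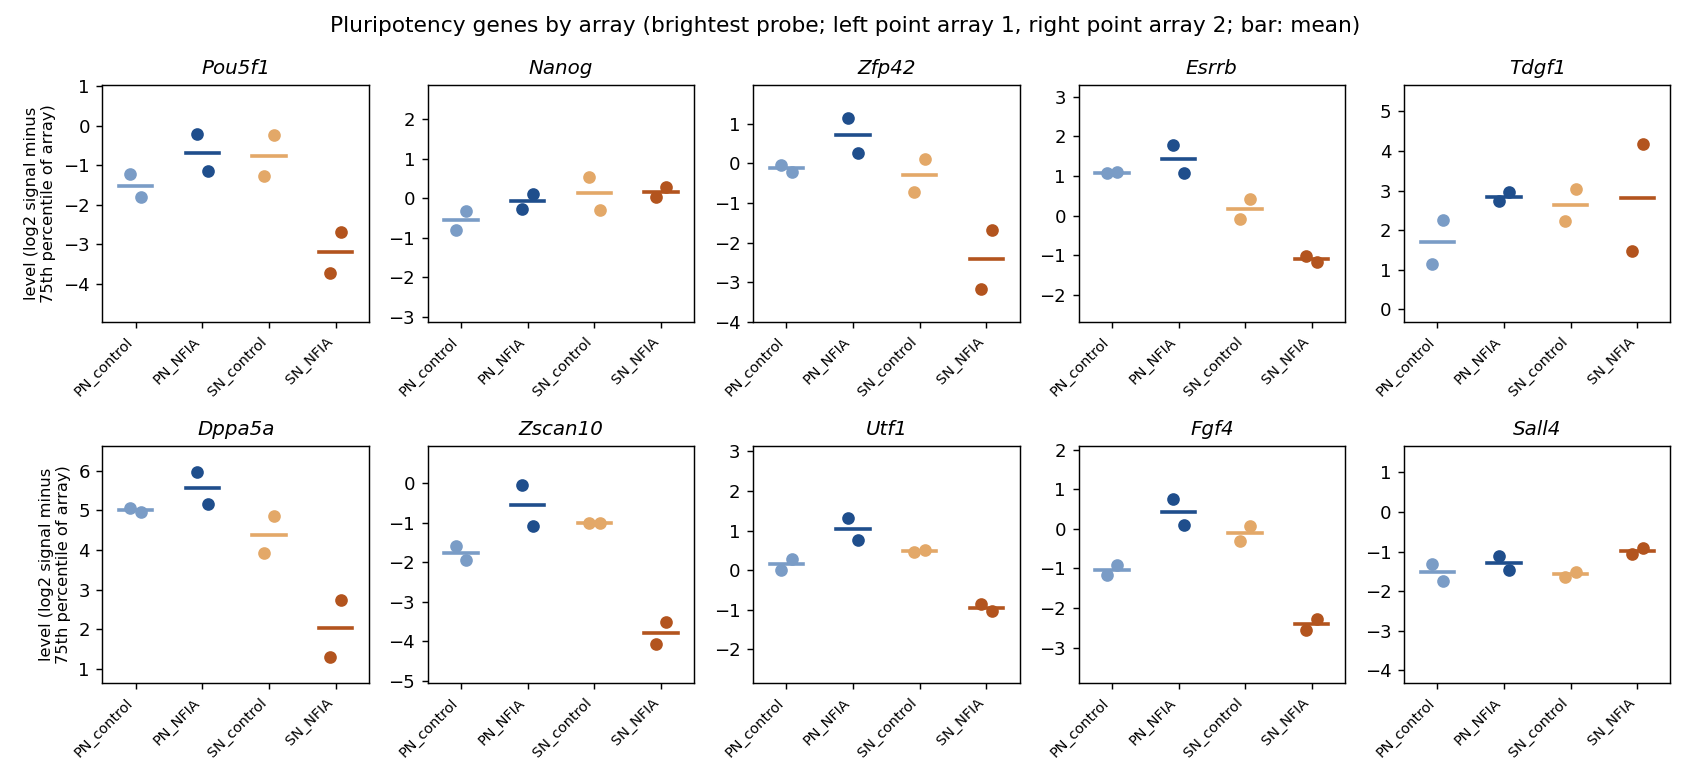
Level of each of the 10 genes by array (y axis, log2 signal minus the 75th percentile of the array, brightest probe, 6 log2 units in every panel) in the 4 groups (x axis); points are arrays and bars group means. Both SN_NFIA points lie below all others in 7 panels, while Nanog, Tdgf1 and Sall4 show no such gap.

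Tdgf1, the gene of the NODAL co-receptor CRIPTO, is covered by 3 probes that passed the filter. The brightest stood at 1.15 and 2.26 in PN_control, 2.74 and 2.95 in PN_NFIA, 2.23 and 3.05 in SN_control, and 1.46 and 4.18 in SN_NFIA. Its 2 SN_NFIA arrays were thus the second lowest and the highest of the 8. The probe A_55_P2183147, well above background on 5 arrays, was not above background on either SN_NFIA array and stood at -2.62 and -3.22 in PN_NFIA. The third, A_55_P2058540, was well above background on the 2 PN_NFIA arrays only. From PN_NFIA to SN_NFIA the brightest probe differed by -0.03 ± 0.84. The other 2 have only a bound there, set by the lowest signal above background of each SN_NFIA array. A_55_P2183147 was at least 2.38-fold lower and did not pass the test (adjusted p = 0.0739 in limma). A_55_P2058540 was at least 1.48-fold lower. It passed the filter only through the PN_NFIA arrays, where it is high, so a lower level elsewhere was built in and no test of it is given. RefSeq lists 2 pseudogenes of Tdgf1, and whether any probe binds them was not tested.

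Sall4, a zinc finger gene needed for stem cell self-renewal, also has 3 probes. The brightest lay at -1.31 and -1.73 in PN_control, -1.12 and -1.47 in PN_NFIA, -1.63 and -1.52 in SN_control, and -1.07 and -0.91 in SN_NFIA. By this probe the SN_NFIA arrays were the highest 2. The probe A_51_P349087, also kept, was lowest in SN_NFIA, at -2.73 and -4.58 against -1.47 and -1.11 in SN_control, with the array at -4.58 not above background. From PN_NFIA to SN_NFIA the brightest probe differed by 0.31 ± 0.27 and A_51_P349087 by -2.55 ± 0.76 (adjusted p = 0.123). The third, A_55_P2173546, was above background on 2 arrays, none of them SN_NFIA, and did not pass the filter. The 2 kept Sall4 probes thus differed in sign in SN_NFIA cells, and neither difference passed. With the mean of the kept probes in place of the brightest, 9 of the 10 genes had their lowest group mean in SN_NFIA, which for Tdgf1 and Sall4 draws on signals not above background.

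**Figure D2:**
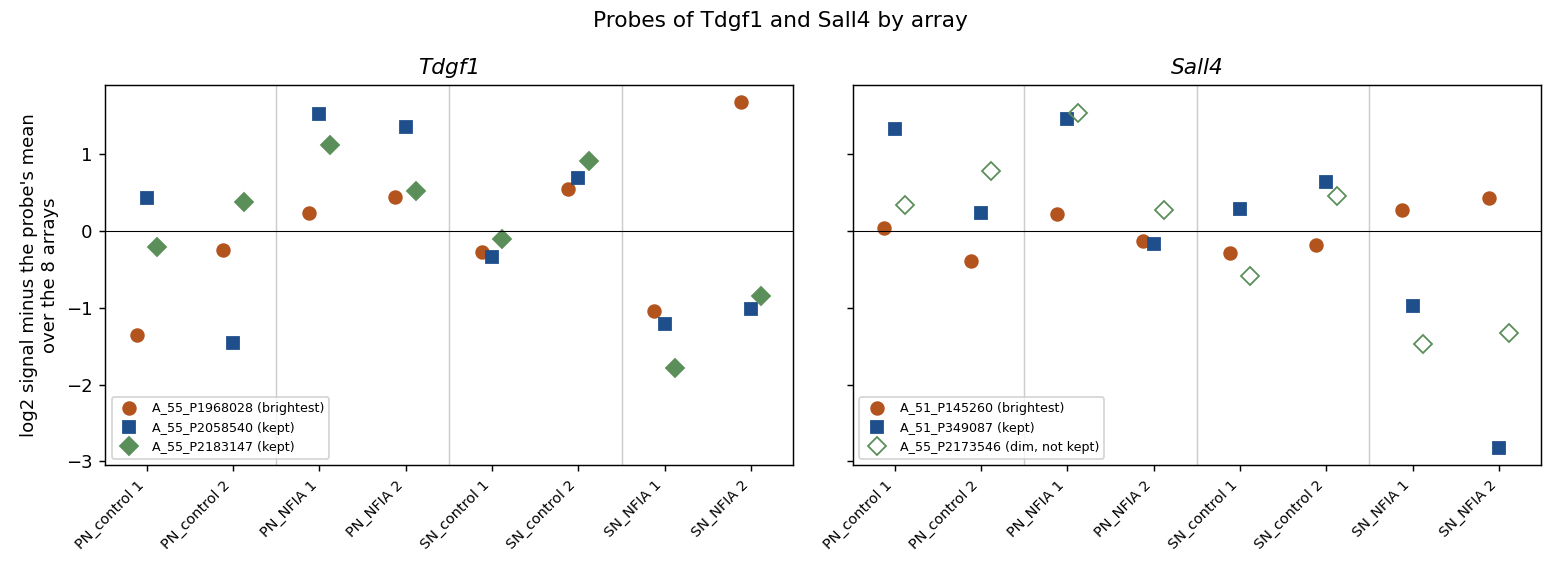
Signal of each probe of Tdgf1 (left) and Sall4 (right) on each array (x axis), as log2 signal minus the probe's mean over the 8 arrays (y axis); open symbols mark a probe that did not pass the filter. In the SN_NFIA arrays both other probes of each gene lie below their mean, all but 1 of these points not above background, while the brightest probe of Sall4 lies above its mean and that of Tdgf1 lies on both sides.

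Across the 8 arrays the other 7 genes moved together. Pearson's r between 2 of them ranged from 0.771 to 0.991 over 21 pairs (median 0.906, 8 arrays, all from the same libraries and scaling). Nanog correlated at -0.579 to -0.126 with these 7, the brightest Tdgf1 probe at -0.201 to 0.143 and the brightest Sall4 probe at -0.503 to -0.407. The other probes of Tdgf1 correlated with the mean of the 7 at 0.78 and 0.958. Those of Sall4 did so at 0.789 and 0.923, the latter from the probe that did not pass the filter. In SN_NFIA cells these other probes were not above background, except A_51_P349087 on SN_NFIA 1. These correlations describe the arrays, and the 7 genes were grouped after their values were seen.

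The passage of NFIA cells brought the most changes among the 10 genes. From PN_NFIA to SN_NFIA, Dppa5a fell by 3.55 ± 0.55 (11.7-fold, adjusted p = 0.0361), Zscan10 fell by 3.21 ± 0.39 (9.28-fold, adjusted p = 0.0229), and Zfp42 fell by 3.13 ± 0.56 (8.78-fold, adjusted p = 0.0462). Fgf4 fell by 2.84 ± 0.31 (7.17-fold, adjusted p = 0.0213), Esrrb fell by 2.52 ± 0.32 (5.74-fold, adjusted p = 0.0229) and Utf1 fell by 1.99 ± 0.28 (3.96-fold, adjusted p = 0.0291), all in limma. These are 6 of 10, where 1.34% of all genes fell, and 0 members rose, where 0.544% of all genes did (1.89% changed in either direction). Pou5f1 differed by -2.51 ± 0.53 and did not pass (adjusted p = 0.0659). Nanog differed by 0.23, with a 95% interval of -0.60 to 1.07.

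The median of the 10 was -2.52, against -0.05 over all genes. In 7 of 10 both SN_NFIA arrays lay below both PN_NFIA arrays, where 31.3% of all genes did, and in 1, Sall4, they lay above, where 25.8% did. The array PN_NFIA 1 was higher than PN_NFIA 2 for 8 of the 10 genes, and the share of all genes was not counted. Leaving out PN_NFIA 1 ended all 6 calls, with the median at -2.11, and leaving out PN_control 1 or PN_control 2, which are no part of the contrast but of the estimate of the spread, also left 0 calls with the median at -2.52. Without PN_NFIA 2 there were 3 calls and without SN_NFIA 1 there were 2, and without PN_NFIA 1 and SN_NFIA 2 together, the 2 arrays with a WT source name, 0. Fitting only the 2 groups compared also gave 0, and without the filter on dim probes 3 passed.

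In control cells the same passage gave no call. From PN_control to SN_control, 0 of the 10 genes passed in limma, where 0.863% of all genes did (0.725% rose and 0.138% fell), and 2 had an unadjusted p under 0.05, where 13.5% did. Both SN_control arrays lay above both PN_control arrays in 4 of 10 (16.0% of all genes) and below in 2 (26.9%). Fgf4 differed by 0.93 ± 0.31 (adjusted p = 0.264) and Esrrb by -0.93 ± 0.32 (adjusted p = 0.275). Of the 10 differences 6 were positive and 4 negative, against 5450 and 8340 over all genes. The median was 0.51, against -0.12 over all genes. With groups by source name it was -2.64, but that compares the arrays titled SN_NFIA 2 and PN_NFIA 1 and no array titled control. For Dppa5a, the largest decrease in NFIA cells, the difference in control cells was -0.63 with a 95% interval of -1.94 to 0.68.

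In secondary neurospheres NFIA cells were compared with the control cells of the same passage. Zscan10 fell by 2.77 ± 0.39 (6.82-fold, adjusted p = 0.0376) and Fgf4 fell by 2.30 ± 0.31 (4.92-fold, adjusted p = 0.0346) in limma. These are 2 of 10, where 0.45% of all genes fell, and 0 members rose, where 0.486% of all genes did (0.935% changed in either direction). Utf1 (-1.44 ± 0.28, adjusted p = 0.0694), Pou5f1 (-2.44 ± 0.53, adjusted p = 0.0884) and Dppa5a (-2.37 ± 0.55, adjusted p = 0.102) did not pass, nor did Esrrb (-1.25 ± 0.32) or Zfp42 (-2.12 ± 0.56). Nanog differed by 0.04, with a 95% interval of -0.80 to 0.87, and the brightest Sall4 probe by 0.59 ± 0.27.

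The median of the 10 was -1.78, against -0.02 over all genes. Both SN_NFIA arrays lay below both SN_control arrays in 7 of 10, where 19.7% of all genes did, and above in 1, Sall4, where 19.2% did. This contrast shares its SN_NFIA arrays with the passage contrast of NFIA cells, so the 2 are not independent. Leaving out SN_NFIA 1, PN_control 1 or PN_control 2 left 0 calls, leaving out PN_NFIA 2 left 1, and the median stayed between -2.0 and -1.44 with any 1 array left out. Fitting only the 2 groups compared or dropping the filter on dim probes left 0 calls, and normexp or probes above background on all arrays left 1.

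In primary neurospheres NFIA cells were the higher side with groups by title, and the lower side by source name (median -0.94). All 10 differences were positive, as were 5891 of all 13790 genes, and 0 passed in limma, where 0.312% of all genes did. Fgf4 differed by 1.47 ± 0.31 (adjusted p = 0.136), Zscan10 by 1.19 ± 0.39 (adjusted p = 0.366) and Utf1 by 0.89 ± 0.28 (adjusted p = 0.342), the 3 members with an unadjusted p under 0.05, where 9.57% of all genes had one. The PN_NFIA arrays lay above the PN_control arrays in 8 of 10, where 21.9% of all genes did, and below in 0, where 30.1% did. The median was 0.83, against -0.08 over all genes, and 0.50 without PN_NFIA 1. That array was the highest of the 8 for 7 of the 10 genes, Zfp42 (1.15), Dppa5a (5.98) and Utf1 (1.32) among them. It also had the largest share of probes well above background (55.5%). For how many of all genes it was the highest was not counted.

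**Figure D3:**
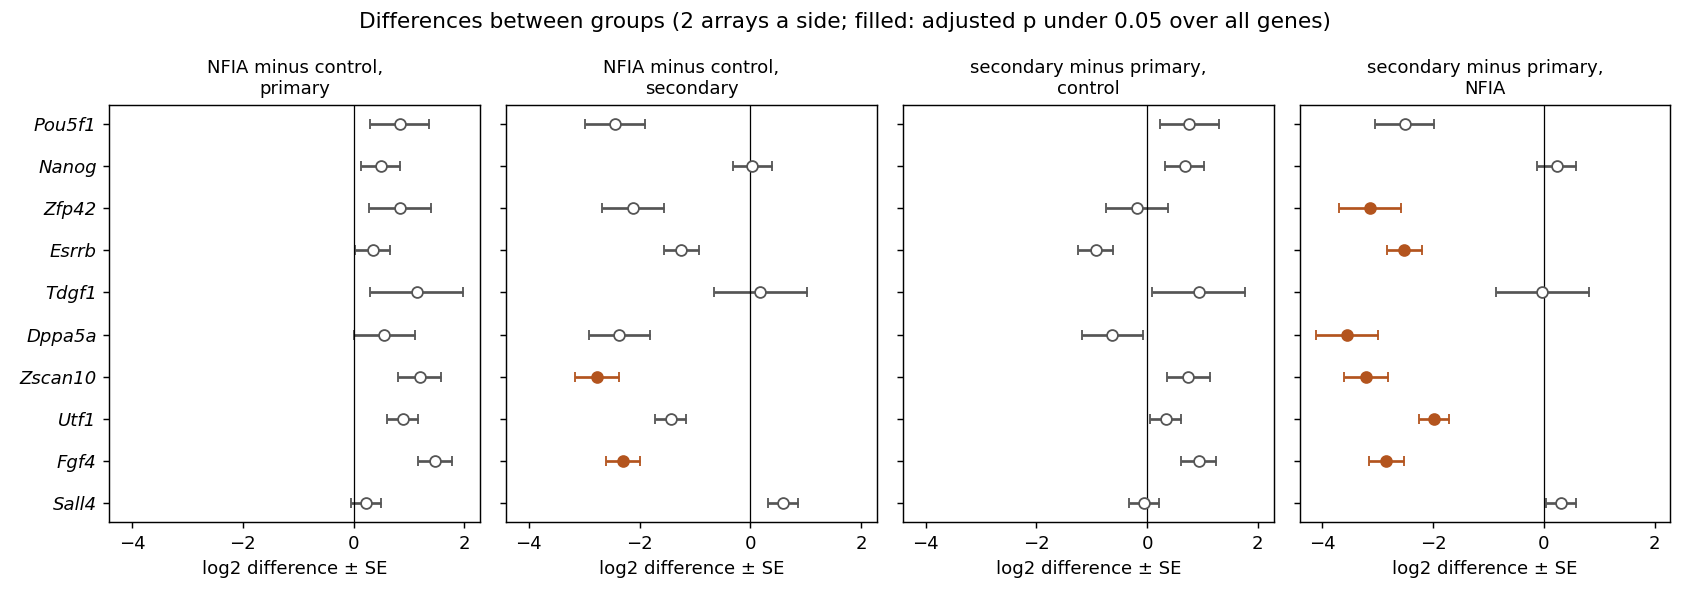
Difference of each gene in 4 comparisons (x axis, log2 ± SE from limma, brightest probe, 2 arrays a side; filled points have an adjusted p under 0.05 over all genes). With groups by title, the 10 differences are positive in primary neurospheres with 0 filled, and 6 are filled and negative for the passage of NFIA cells.

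Whether the NFIA difference itself changed with passage was tested as an interaction. Of the 10 genes 0 passed, as did 0 of all genes (0.0%), while 7 of the 10 had an unadjusted p under 0.05 in limma, where 6.75% of all genes had one. The largest were Zscan10 at -3.96 ± 0.55 (adjusted p = 0.122) and Fgf4 at -3.77 ± 0.44 (adjusted p = 0.0775), followed by Pou5f1 at -3.27 ± 0.76 (adjusted p = 0.343). Without SN_control 1 there were 2 calls, and without SN_control 2 there was 1.

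Other genes of the circuit, in a list of 25 of which 23 were tested, were examined in the same comparisons. With passage of NFIA cells 4 fell (1.34% of all genes did), 0 rose (0.544%) and 19 did not pass, with a median of -1.79. Tdh, the threonine dehydrogenase gene on which mouse stem cells depend, fell by 3.01 ± 0.37 (adjusted p = 0.0229), Lin28a, which blocks let-7 maturation, fell by 3.60 ± 0.65 (adjusted p = 0.0483), and L1td1, an RNA-binding protein gene, fell by 1.69 ± 0.31 (adjusted p = 0.0484). Lefty1, a secreted NODAL inhibitor, was at least 7.32-fold lower (adjusted p = 0.0384). It was not well above background on either SN_NFIA array, so the bound sets each of these arrays at its lowest signal above background.

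Not every gene of that list was lower. Sox2, the OCT4 partner that neural cells keep, lay between 2.46 and 3.26 on all 8 arrays and differed by 0.11 ± 0.31 from PN_NFIA to SN_NFIA. Klf4, a reprogramming factor, was at -0.11 and 0.05 in PN_control, 1.13 and 0.79 in PN_NFIA, -0.06 and 0.26 in SN_control, and 1.52 and 2.0 in SN_NFIA. Its SN_NFIA arrays were thus the highest 2, with a difference of 1.66 ± 0.28 from SN_control (adjusted p = 0.0525). In that contrast Lefty1 had the next smallest p of the list and was at least 5.25-fold lower (adjusted p = 0.0621 in limma). Of the 23 differences there, 15 were negative and 8 positive, against 7101 and 6689 over all genes. Between SN_NFIA and SN_control 0 of the 23 passed in limma, where 0.935% of all genes did. Of them 11 had an unadjusted p below the same level (15.1% of all genes), and the median was -0.81. In primary neurospheres 0 passed (0.312% of all genes did). Before adjustment 8 were below that level (9.57% of all genes, median 0.57), the smallest for Nr5a2 (1.46 ± 0.33) and Klf2 (1.74 ± 0.40). With passage of control cells 0 passed (0.863% of all genes did). Before adjustment 3 were below that level (13.5% of all genes, median -0.15), among them Nr0b1 (-2.04 ± 0.44) and Tbx3 (2.01 ± 0.48).

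The formative and primed list holds genes of the step after the naive state. With passage of NFIA cells 3 of its 11 genes fell (1.34% of all genes did) and 0 rose (0.544%), with a median of -1.57. Fgf5, the classic epiblast growth factor gene, fell by 3.89 ± 0.42 (adjusted p = 0.0204) and Nodal fell by 2.31 ± 0.28 (adjusted p = 0.0229). Dnmt3b, a de novo DNA methyltransferase gene, fell by 2.51 ± 0.38 (adjusted p = 0.0338). Fgf5 was at 1.01 and -0.06 in PN_NFIA and 0.12 and 0.39 in SN_control, but at -3.06 and -3.78 in SN_NFIA. It fell by 3.68 ± 0.42 against SN_control (adjusted p = 0.0229 in limma), as 1 of 11, where 0.45% of all genes fell. The Fgf5 probe was not well above background on 1 of the 2 SN_NFIA arrays. In primary neurospheres and with passage of control cells 0 of the 11 passed in limma, where 0.312% and 0.863% of all genes did. Before adjustment 3 and 2 were below that level (9.57% and 13.5% of all genes).

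**Figure D4:**
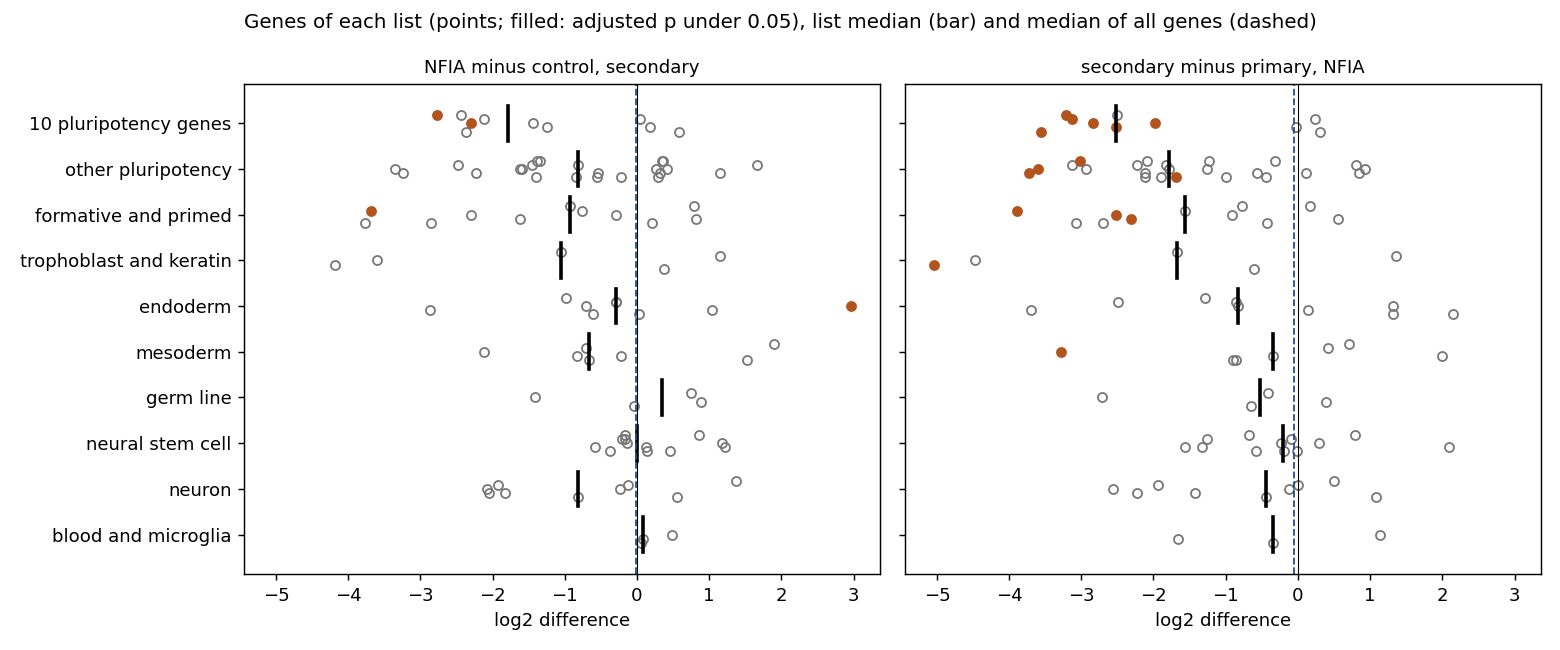
Log2 difference (x axis) of each tested gene of 10 lists (y axis) between SN_NFIA and SN_control (left) and between SN_NFIA and PN_NFIA (right); filled points have an adjusted p under 0.05, bars are list medians and the dashed line is the median of all genes. The medians of the 10 pluripotency genes are -1.78 and -2.52, and those of the neural stem cell list -0.01 and -0.21.

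Markers of other cell types moved with these genes in part. A summed signal adds the linear signals of a list's genes, in units of the array's 75th percentile. A bright probe can make up most of it, so it does not give the amount of a cell type. The trophoblast list, which includes the simple epithelial keratins, summed to 7.3 to 10.7 in PN_control, 7.66 to 40.6 in PN_NFIA, 5.5 to 17.2 in SN_control and 0.925 to 1.59 in SN_NFIA. Most of the 40.6, on PN_NFIA 1, was Krt18. From PN_NFIA to SN_NFIA Krt18 fell by 5.04 ± 0.90 (adjusted p = 0.0462 in limma) as 1 of 5 tested, where 1.34% of all genes fell. Krt18 stood at 5.23 and 2.68 in PN_NFIA and at -1.55 and -0.62 in SN_NFIA. Krt8 was at least 8.73-fold lower in SN_NFIA without passing (adjusted p = 0.0508), while Tfap2c (-1.67 ± 0.57), Ascl2 (-0.61 ± 0.49) and Plac1 (1.36 ± 0.93) did not pass either, the last with a positive sign. Of its 8 genes Elf5 was not well above background on any array. The endoderm list summed to 32.8 to 33.5, 38.7 to 53.3, 41.5 to 43.8 and 25.6 to 36.4 in the same order. Of 9 tested, 0 fell on the passage of NFIA cells (1.34% of all genes did). With passage of control cells Col4a1 alone rose, by 2.86 ± 0.46 (0.725% of all genes rose). Sox7 was at least 2.26-fold higher in SN_NFIA than in SN_control. Sox7 was above background on no control array and passed the filter only through the NFIA groups, where it is high. A higher level in NFIA cells was thus built in, and no test of it is given. The mesoderm list summed to 4.03 to 5.05, 6.86 to 7.02, 9.71 to 17.2 and 8.87 to 10.3. Eomes alone of 7 tested fell on the passage of NFIA cells (-3.29 ± 0.40, adjusted p = 0.0229 in limma), where 1.34% of all genes fell. Intermediate neural progenitors also express Eomes. Col1a1 (5.45 ± 0.51) and Pdgfrb (3.11 ± 0.35) rose with passage of control cells, as 2 of 7, where 0.725% of all genes rose. In this list Mixl1 and Mesp1 were not above background on any array. The germ line list summed to 1.38 to 1.78, 1.77 to 2.96, 1.15 to 1.86 and 1.58 to 1.63, with Dazl, Stra8 and Mael not above background anywhere. Neural stem cell markers summed to 432.0 to 503.9, 333.6 to 397.2, 320.6 to 350.4 and 448.4 to 711.5, with Fabp7 (8.70 on SN_NFIA 2) making up most of the 711.5. Pax6 alone fell with passage of control cells, by 2.74 ± 0.32 (0.138% of all genes fell). Of the 12, 0 passed between SN_NFIA and SN_control or PN_NFIA in limma, where 0.935% and 1.89% of all genes did (3 and 4 before adjustment, against 15.1% and 21.2% of all genes). Neuronal markers summed to 183.1 to 184.7, 123.2 to 139.2, 90.2 to 212.0 and 67.9 to 73.5, with 0 of 9 passing in the same comparisons (5 and 5 before adjustment, against the same shares). The blood and microglia list summed to 13.9 to 15.9, 13.5 to 16.6, 21.0 to 22.9 and 18.1 to 50.4, most of it the signal of Itgam (5.61 on SN_NFIA 2). Of this list Ptprc, Aif1, Cx3cr1 and Hbb-bt were not above background on any array. The part of any of these cell types in the levels of the 10 genes was not tested.

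Outside the 10, the 5 genes whose levels over the 8 arrays were most like the mean of the 10 were Trim25 (Pearson's r = 0.985), Tnk1 (0.983), Dnd1 (0.98), Ripk4 (0.978) and Tex19.1 (0.978). Dnd1 and Tex19.1 are known from germ cells, and Trim25 encodes a ubiquitin ligase. Ripk4, a kinase gene of epithelia, stood at 1.18 and 0.38 in PN_NFIA, -0.89 and 0.26 in SN_control, and -3.59 and -2.95 in SN_NFIA. The 5 genes were picked for their likeness on these same 8 arrays. Low levels in SN_NFIA were thus built in, and no test of them is given.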

How the data were processed

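RNA of 8 sorted samples was hybridised to 8 arrays of 1 slide, scanned on 1 date. Per the file headers, Feature Extraction 10.5.1.1 wrote the deposited scanner files, whose intensity column is corrected for background and for trends across the array, and whose other columns used here flag spots (0 or 1). The submitters' processing notes name version 10.7.3.1. The authors' deposited value table is on the log2 scale. Set against the scanner signals, it proved scaled by the 75th percentile and centred per probe, with a largest absolute probe median of 0.000245. It served to assign arrays to samples and as an alternative.

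Signals were taken to log2, the array's 75th percentile was subtracted, and spots of a probe were averaged. Outlier flags removed 126 probes. Of 55681 probes 26056 took a symbol from RefSeq by transcript accession, 0 had several and 29625 had none. A probe was kept where 1 or more groups had both arrays well above background, and the brightest stands for a gene. Where the lower group had no array above background, the fold is a bound against the lowest signal above background of each array. The test was limma 3.58.1 (R 4.3.3) on a model of 4 group means over all 8 arrays, checked on simulated data. An exact permutation test of 2 against 2 arrays cannot go below 0.333 and was not used.

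The members and lists were chosen with earlier results of these data known. The rule named all 10 members, from each list the genes past the test in a comparison (at most 4, otherwise the 2 with the smallest p) and the 5 most alike genes. Of the marker lists only genes past the test have their differences printed, except that the trophoblast list has all 5 tested genes. Sox2 was added for its role in the circuit after its values were seen. Normexp used the median spot signal, in place of the planned mean, which is not used here. The alternatives covered background, scaling, filters, probes, array assignment, groups and replicates, and 3 were chosen after seeing the data: the other probes, the 2 arrays with a WT source name left out, and crossed replicate numbers.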

Additional observations from a re-analysis of the deposited data

Results flagged for a closer look

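In 6 of the 10 genes (60.0%, against 2.04% of all genes tested) both PN_NFIA arrays lay above both PN_control arrays while both SN_NFIA arrays lay below both SN_control arrays, so the NFIA difference points up in primary and down in secondary neurospheres with arrays by the value table and groups by title. The pattern depends on the labels: the medians of the 10 genes were 1.48 and 1.06 with the files as attached, and -0.94 and 0.77 with groups by source name. The difference between the 2 effects was -3.27 for Pou5f1, -2.95 for Zfp42, -2.92 for Dppa5a, -3.96 for Zscan10, -2.32 for Utf1 and -3.77 for Fgf4. The interaction test in limma passed for 0 of them (adjusted p between 0.0775 for Fgf4 and 0.42 for Zfp42 and Dppa5a), with 7 of the 10 members at an unadjusted p under 0.05.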

How the results depend on the processing

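The 10-gene medians depend on the assignment of arrays and groups, and the counts of calls changed with the arrays, filters and groups in the fit. With the scanner files as attached, the median was 1.48 in primary neurospheres, 1.06 in secondary ones, 0.11 for the passage of NFIA cells and -0.0503 for the difference of effects, with 0 calls; Zscan10 and Fgf4 in secondary neurospheres were at 2.01 and 1.95, and Zfp42, Esrrb, Zscan10, Utf1 and Fgf4 with passage of NFIA cells at 0.0301, 0.0911, 0.52, 0.26 and 0.13. With groups by source name the medians were -0.94 in primary and 0.77 in secondary neurospheres, and 1.59 for the difference of effects. They were -2.64 for the passage of control cells and -0.33 for that of NFIA cells. The control side of each passage is then 1 array, titled PN_NFIA 1 or SN_NFIA 2, and the -2.64 is between these 2 arrays. Zscan10 and Fgf4 in secondary neurospheres were at 1.47 and 1.36. Normexp gave medians of -1.34 in secondary neurospheres, -1.79 for the passage of NFIA cells and -2.09 for the difference of effects, with 1 call in secondary neurospheres. There, 0 members passed without the filter on dim probes, with only the groups compared or with the replicate block over all arrays, 1 of 9 with probes above background on all arrays, and 5 with the replicate block within each passage. For the passage of NFIA cells 3 passed without the filter and 0 with only the groups compared. Leaving out both NFIA arrays with a WT source name gave 0 calls in both, an alternative chosen after seeing the data. With any 1 array left out, medians ranged from 0.50 to 1.1 in primary neurospheres, -2.0 to -1.44 in secondary ones, 0.27 to 0.51 for the passage of control cells, -2.92 to -2.11 for that of NFIA cells and -2.98 to -2.20 for the difference of effects, with counts of 0 to 3 in secondary neurospheres, 0 to 7 for the passage of NFIA cells, 0 to 2 for the difference and 0 for the other 2 comparisons. A group left with 1 array is assumed to vary like the others, and the cause of these changes was not tested. Quantile normalization, the mean of the probes and the authors' value table kept each count within 1.5 times and each median within 1 SE. In the group levels, 7 members were lowest in SN_NFIA, 6 of 9 to 9 of 10 under the scaling, filter, probe and value table alternatives, and 0 with the files as attached. The fit of only the groups compared has no counterpart for the difference of effects, and the replicate block within each passage none for the passage comparisons.

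The labels do not say that equal numbers mark a shared culture. Same-numbered arrays deviated together within a passage (correlation over genes 0.445 in primary and 0.484 in secondary neurospheres) and not across passages (-0.188 between control groups, 0.0419 between NFIA groups). With the planned replicate block over all arrays, 5 members passed for the passage of NFIA cells and 0 for that of control cells. With crossed numbers as a replicate block, chosen after seeing the data, 7 and 0 passed. Zscan10 was not above background on 1 SN_NFIA array, while the brightest probes of the other 9 members were above background on all 8 arrays.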
